A study of Mus musculus with 234 samples.

Results

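Single cardiomyocytes (CMs) of homozygous PGKcre:BAG3P209L mice were compared by their level of *Nppa*, the gene of atrial natriuretic peptide. Cells labelled homo_bright or homo_dim with 1000 or more detected genes were ranked within each mouse and eGFP class by *Nppa* CPM (counts scaled to a cell total of 1e6), ties by total counts, and were divided into 3 parts by rank. The Nppa-high cells (46 cells) and the Nppa-low cells (46 cells) are the upper and lower parts, with 50 cells between them, out of 142 homozygous cells that passed the gene minimum, 148 homozygous cells and 234 cells in the whole series. Because the classes were selected on measured *Nppa* values, *Nppa* itself is described and not tested, and the comparison concerns all other genes.

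The hearts came from mice 2 weeks old that carry a human BAG3 with the P209L change fused to eGFP on both alleles, driven by the ubiquitous CAG promoter behind a STOP cassette. PGK-Cre removed the cassette from 1 or both alleles, and which of these holds for M25 and M116 is not given in the sources used here. BAG3 is a co-chaperone of small heat shock proteins and Hsp70 at the sarcomere. CMs were released from hearts by Langendorff perfusion, picked by hand and sequenced by the SMART-seq2 method, a full-length protocol without molecular identifiers. The homozygous cells came from 2 mice, M25 (bright: 20 cells kept, dim: 18) and M116 (bright: 56, dim: 48), so that each mouse and eGFP class is a block and the 4 blocks share 2 animals. The sample titles carry 1 tag for the M25 cells and 2 other tags for the M116 cells, with no statement of what a tag is, so that mouse and tag cannot be told apart between the animals. Cells of the heterozygous PGKcre:BAG3P209L mouse M72 (bright and dim) and of the C57BL/6-labelled control mice M26 and M73 were split by the same rule for comparison. Counts of 1 cell are not a replicate: cells were summed per block and class, and the sums were compared.

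Natriuretic peptides are secreted by heart muscle and lower blood pressure and volume through guanylyl cyclase receptors. In the working ventricle *Nppa* is high before birth, falls with maturation, stays on longest in the trabecular layer and the conduction system, and returns under stretch and overload. *Nppb*, which encodes the B-type peptide, lies next to *Nppa* on the chromosome and responds to many of the same conditions. *Ankrd1* encodes a titin-associated repeat protein that is a classic gene of the stretched CM.

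The proximal promoters of these 3 genes are shown because *Nppa* set the classes and *Nppb* and *Ankrd1* are the stretch genes with the lowest p values discussed next. They are RefSeq sequences of build GRCm38.p6, from 250 bases before to 50 after the start site (Nppa, plus strand of chr4:148000472-148000771. Nppb, plus strand of chr4:147985650-147985949. Ankrd1, minus strand of chr19:36119795-36120094). Capitals mark letters found on either strand. The motif AGATAA is that of the GATA factors. The motif CATTCC, called M-CAT, is that of the TEAD factors. The motif AAGTG is the core for Nkx2-5, and the motif TCACAC is one for T-box factors. The motif TATAAA is the TATA box. No marked motif overlaps another here.
Nppa: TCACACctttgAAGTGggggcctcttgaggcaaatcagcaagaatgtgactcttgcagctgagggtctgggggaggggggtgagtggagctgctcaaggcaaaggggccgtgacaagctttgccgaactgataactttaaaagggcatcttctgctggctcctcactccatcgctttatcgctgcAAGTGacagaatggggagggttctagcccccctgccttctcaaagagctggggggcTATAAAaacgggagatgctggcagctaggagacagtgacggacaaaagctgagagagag
Nppb: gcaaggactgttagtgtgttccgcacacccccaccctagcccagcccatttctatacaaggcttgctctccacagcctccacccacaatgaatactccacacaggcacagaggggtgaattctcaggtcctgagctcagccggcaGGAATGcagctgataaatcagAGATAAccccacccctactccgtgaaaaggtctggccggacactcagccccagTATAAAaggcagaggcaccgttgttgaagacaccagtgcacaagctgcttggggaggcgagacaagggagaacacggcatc
Ankrd1: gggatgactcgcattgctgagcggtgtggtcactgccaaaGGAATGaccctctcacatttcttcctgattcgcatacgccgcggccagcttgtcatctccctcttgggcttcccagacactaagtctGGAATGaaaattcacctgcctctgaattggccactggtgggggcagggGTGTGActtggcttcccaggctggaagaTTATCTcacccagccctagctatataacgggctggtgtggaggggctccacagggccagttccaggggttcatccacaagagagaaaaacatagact
The M-CAT letters were found 1 time in the *Nppb* window and 2 times in the *Ankrd1* window, and in 14.7% of 32851 promoter windows of the same length. The GATA letters, present in those same windows, occurred in 11.2% of all windows, the T-box letters in 14.5%, the TATA letters in 13.6% and the shorter Nkx2-5 core in 46.4%. A match of letters is a description of the window and not a binding site.

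Many homozygous cells had no *Nppa* transcript detected, and the highest held 3339 CPM. No *Nppa* count was found in 5 of 20 M25 bright cells, 5 of 18 M25 dim cells, 31 of 56 M116 bright cells and 32 of 48 M116 dim cells. In Nppa-high cells the median was 719 CPM in M25 bright, 1641 in M25 dim, 114 in M116 bright and 1.35 in M116 dim, and the highest cell of each block held 3066, 2451, 3339 and 170 CPM. In M116 dim only 3 cells reached 10 CPM, so that its Nppa-high class is mostly cells with 1 or a few *Nppa* counts. In M116 bright 14 cells reached 10 CPM, out of 18 in the Nppa-high class. The one at 143 CPM, next to the median, had only 6972 counts in total. Just inside and just outside the upper boundary lay 136 and 91.5 CPM in M25 bright, 74.3 and 59.6 in M25 dim, 1.68 and 1.42 in M116 bright, and 1.06 and 0 in M116 dim. At the lower boundary they were 1.41 and 1.96 CPM in M25 bright and 0.852 and 0.941 in M25 dim. In both M116 blocks all Nppa-low cells and their nearest neighbours were at 0, and total counts decided which cells were called Nppa-low.

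**Figure D1:**
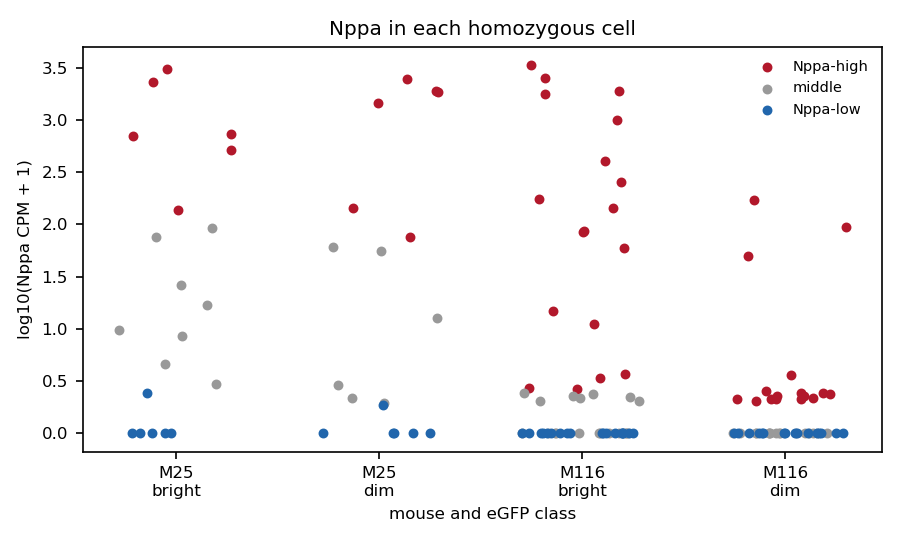
*Nppa* as log10(CPM + 1) in each of the 142 homozygous cells with 1000 or more genes, 1 point per cell, by mouse and eGFP class on the x axis. Nppa-high cells are red, the middle cells grey and Nppa-low cells blue, and in M116 dim only 3 cells stand above 10 CPM.

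The ranking carried cell depth with it. The median number of genes detected was 7806 in Nppa-high and 5132 in Nppa-low cells of M25 bright, 6186 and 5952 in M25 dim, 5924 and 5047 in M116 bright, and 5762 and 5051 in M116 dim. Without 2 Nppa-low wells of M25 bright low in CM markers, described below, and with cells ranked again, its medians were 7806 and 6591. With each cell thinned to 100000 counts, which left out 2 Nppa-high and 2 Nppa-low cells with fewer, all of M116 bright, the medians were 5623 and 3976, 4690 and 4529, 4726 and 3982, and 4292 and 3914 genes in the same order. The summed counts ranged from 6128091 to 12499129 for Nppa-high and from 4656103 to 10493921 for Nppa-low classes. Across 12054 genes tested the median log2 fold change was 0.11. It was 0.07 over 8304 genes in thinned cells, which were ranked again, and it was 0.02 when cells were ranked separately among those above and below the median of genes detected, an alternative chosen after the data were seen in which the classes had similar gene numbers.

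**Figure D2:**
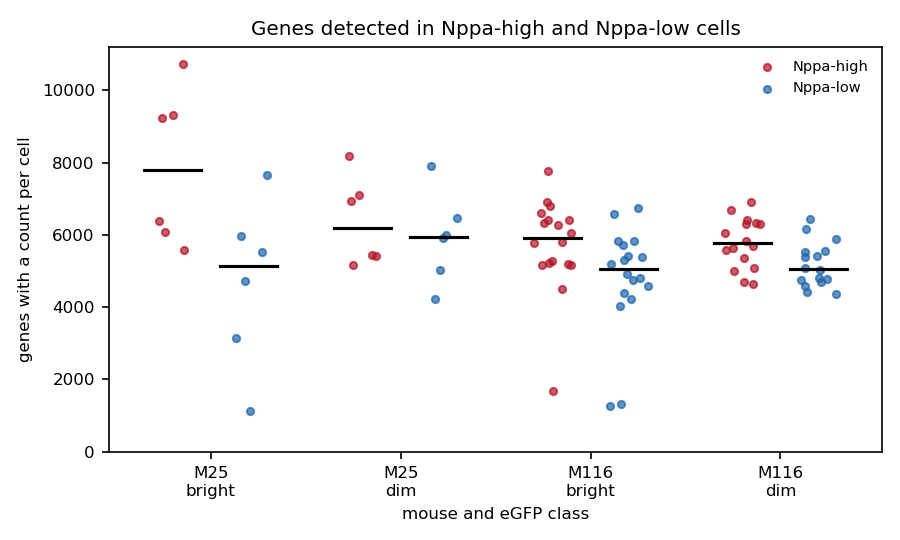
Genes with a count in each Nppa-high (red) and Nppa-low (blue) cell, by mouse and eGFP class, with the median as a black line. The median is higher in the Nppa-high cells of all 4 blocks, and M25 bright has the widest gap, 7806 against 5132 genes.

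Both classes carried the ventricular CM program. *Myh6*, *Tnnt2*, *Tnni3*, *Actc1*, *Ryr2*, *Myl2* and *Myl3* had counts in 46 of 46 cells of each class, and the atrial genes *Myl7*, *Sln* and *Bmp10* had no count in either. Among further atrial markers, *Kcnj3* had a count in 22 Nppa-high and 19 Nppa-low cells (846 and 232 counts, log2 difference 1.56, SE 0.87), *Myl4* in 14 and 8, *Nr2f2* in 8 and 3, *Stard10* in 5 and 5 and *Mybphl* in 0 and 2. Of 7 atrial genes tested 4 were higher and 3 lower, with a median log2 difference of 0.12 that ran from -1.12 to 1.25 over 8 alternatives. Of the conduction system markers, *Irx3* had a count in 27 and 20 cells (294 and 158 counts) and *Etv1* in 11 and 11 (101 and 171 counts). *Hcn4* had one in 3 and 1 cells, *Tbx3* in 3 and 2, *Cpne5* in 2 and 0, *Gja5* in 0 and 1 and *Cntn2* in none.
Among the 142 homozygous cells 2 stood apart from the label cardiomyocyte, both in the Nppa-low class of M25 bright. Their summed CM markers (*Myh6* and others) were at 139 and 1622 CPM, while the other 140 cells lay between 24683 and 59832 CPM. The first held 44926 CPM of fibroblast markers, with *Dcn* at 19050 CPM, and made up 18.2% of the M25 bright Nppa-low counts, and the second made up 4.97%. Values without both wells, with the remaining cells ranked again, are therefore given beside a part of the results. Markers of other cell types at 100 CPM or more were found in 18 of 46 Nppa-high and 12 of 46 Nppa-low wells, mainly endothelial markers (12 and 8 wells). The block mean of fibroblast markers was 10.4 to 246 CPM in Nppa-high and 1.28 to 7508 CPM in Nppa-low cells, and that of smooth muscle and pericyte markers 29.2 to 65.7 and 1.21 to 15.1 CPM.

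No gene passed an adjusted p of 0.05 in the edgeR quasi-likelihood test over the 8 sums with the block as a term (percent called: higher 0, lower 0 of 12054 genes), and the lowest adjusted p was 1. Without adjustment, 192 genes had a p under 0.05 and a higher Nppa-high sum (1.59%), and 180 had a lower one (1.49%). By DESeq2, 46 genes (0.382%) were called higher and 39 (0.324%) lower at an adjusted p of 0.05. Of these 85 genes, 20 had over 50% of their counts in 1 cell and 72 had a count in fewer than 50% of the 92 cells. Without the 2 wells low in CM markers, edgeR again called 0 genes and DESeq2 called 54 higher and 19 lower. In all 4 blocks 901 genes (7.47%) were higher and 600 (4.98%) lower in the Nppa-high sum. All values below are normalized CPM of the sums (CPM with the TMM factor of the sum), and since no gene passed the test they are levels and differences with their errors and not calls.

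*Nppb* had the lowest p of the genes higher in all 4 blocks. Its Nppa-high and Nppa-low sums held 1677 and 523 CPM in M25 bright, 1561 and 534 in M25 dim, 955 and 351 in M116 bright, and 392 and 293 in M116 dim. The high sum was above the low sum within each block, while the M116 dim high sum lay below both M25 low sums. The log2 difference was 1.28 (SE 0.21, edgeR, unadjusted p = 0.000405, adjusted p = 1), 2.43-fold, and 1.22 (SE 0.19) without the 2 wells. In DESeq2 it was 1.26 (SE 0.20, adjusted p = 1.93e-06), and 1.20 without the wells (adjusted p = 5.63e-09). Counting single cells, *Nppb* ran from 952 to 2676 CPM in the 6 Nppa-high cells of M25 bright and from 0 to 909 in its 6 Nppa-low cells, so these did not overlap. The lowest of the Nppa-low values, 0 and 4.32 CPM, are those of the 2 wells low in CM markers, and the other 4 cells ran from 398 to 909 CPM. In M116 dim the medians were 264 and 254 CPM, and the cells of both classes overlapped. The Spearman correlation of *Nppb* with *Nppa* over all cells of a block, a description over cells that share a mouse, was 0.77 in M25 bright (20 cells, and 0.72 in 18 cells without the 2 wells), 0.61 in M25 dim (18), 0.41 in M116 bright (56) and 0.06 in M116 dim (48).

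The other members of the natriuretic system showed small or sparse differences, none past the test. *Corin*, which encodes the protease that cuts pro-ANP, was lower in the Nppa-high sum of all 4 blocks, for example 66.5 and 85.5 CPM in M25 dim and 53.9 and 60.4 in M116 dim, a log2 difference of -0.36 (SE 0.25) that was 0.47 without wells holding markers of another cell type. *Furin*, the protease for pro-BNP, had -0.34 (SE 0.53) and *Pam*, an amidating enzyme that is abundant in atrial granules, 0.23 (SE 0.21). Of the receptor genes, *Npr1* had counts in 6 and 2 cells, *Npr3*, the clearance receptor, in 1 and 6 cells, and *Npr2* in 28 and 19 cells with a log2 difference of 0.63 (SE 0.61).

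**Figure D3:**
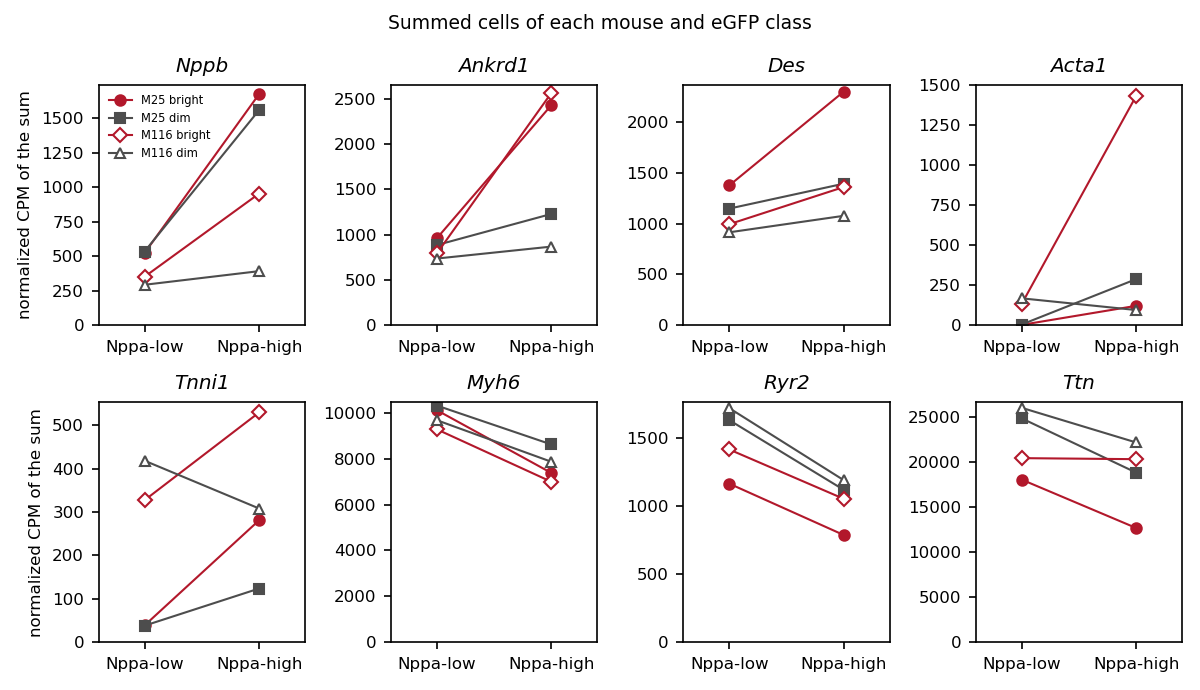
Normalized CPM of the summed Nppa-low and Nppa-high cells for 8 genes, 1 line per mouse and eGFP class (red: bright, grey: dim, filled: M25, open: M116), y axes from 0. *Nppb*, *Ankrd1* and *Des* are higher at the Nppa-high end of all 4 lines and *Myh6* and *Ryr2* lower, while *Acta1* and *Tnni1* cross in M116 dim.

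Of the stretch and border zone genes, 15 of 18 were higher (83.3%, against 56.1% of all genes tested). Of the higher ones 8 had an unadjusted p under 0.05 (1.59% of all genes were higher with such a p). The list had a median log2 difference of 0.63 against 0.11 over all genes (0.85 without the 2 wells), and 0 of its genes passed the test. *Ankrd1* held 2432 and 960 CPM in M25 bright, 1229 and 885 in M25 dim, 2567 and 792 in M116 bright, and 868 and 736 in M116 dim. Both bright blocks showed the wider gap, and the M116 dim high sum lay below the M25 low sums. Over single cells the Nppa-high and Nppa-low medians were 1963 and 326 CPM in M25 bright (659 in the 4 Nppa-low cells other than the 2 wells) and 1753 and 453 in M116 bright, but 770 and 1017 in M25 dim and 351 and 664 in M116 dim. In both dim blocks the median cell was thus lower in the Nppa-high class although the sum was higher. The log2 difference of the sums was 0.94 (SE 0.24, edgeR, adjusted p = 1), and 1.01 without the 2 wells. In DESeq2 it was 0.92 (adjusted p = 0.00687), and 0.98 without the wells (adjusted p = 0.255). The difference between bright and dim blocks was 1.16 on the log2 scale (SE 0.21, edgeR interaction, adjusted p = 0.822). *Des*, the muscle intermediate filament, held 2305 and 1378, 1396 and 1150, 1363 and 996, and 1079 and 916 CPM in the same order, a log2 difference of 0.43 (SE 0.11). The classes overlapped between blocks, and the median cells of M116 bright were at 988 and 1003 CPM. Those of M25 bright were at 1729 and 1432 CPM, with 1759 in the 4 Nppa-low cells other than the 2 wells.

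The sarcomere isoforms of the fetal and skeletal type were less even. Of 10 tested neonatal and skeletal isoforms 7 were higher (70%, against 56.1% of all genes) and 3 lower, and 3 of the higher ones had an unadjusted p under 0.05 (1.59% of all genes). *Acta1*, skeletal alpha-actin, held 121 and 1.69 CPM in M25 bright, 288 and 3.7 in M25 dim, 1434 and 131 in M116 bright, and 94.7 and 168 in M116 dim. It was thus higher in 3 blocks and lower in the fourth. In each class 1 cell held a large part of the counts, 46.4% in Nppa-high and 39.2% in Nppa-low. In M116 dim the highest Nppa-low cell held 2020 CPM, and the median cells were at 12.3 (Nppa-high) and 0.775 CPM (Nppa-low). Those of M116 bright were at 3.51 and 2.26 CPM. *Tnni1*, slow skeletal troponin I, held 281 and 39.0, 124 and 38.5, 529 and 327, and 308 and 418 CPM, and its sum too was lower in M116 dim. *Myl1* held 100 and 4.11, 70.7 and 2.02, 24.5 and 28, and 27.3 and 10.3 CPM, higher in 3 of 4 blocks. Its median cells were at 0 and 0 CPM in M116 bright and at 0 and 0.768 in M116 dim. *Acta2*, smooth muscle alpha-actin, held 728 and 482, 1157 and 623, 1458 and 1745, and 1647 and 1351 CPM, higher in 3 of 4 blocks, with a log2 difference of 0.38 (SE 0.18).

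The genes with the lowest p among those lower in all 4 blocks included 2 of the mature CM. *Myh6*, the main myosin heavy chain of the mouse heart, held 7371 and 10104 CPM in M25 bright, 8612 and 10306 in M25 dim, 6987 and 9272 in M116 bright, and 7858 and 9669 in M116 dim. Every high sum lay below every low sum (1.15% of genes showed this). The log2 difference was -0.36 (SE 0.06, edgeR, unadjusted p = 0.00031, adjusted p = 1), and -0.39 (SE 0.09) without the 2 wells. In DESeq2 it was -0.37 (adjusted p = 0.00156). *Ryr2*, the calcium release channel of the sarcoplasmic reticulum, held 789 and 1167, 1121 and 1634, 1055 and 1418, and 1192 and 1722 CPM, a log2 difference of -0.52 (SE 0.09) and -0.54 without the 2 wells, and it too was called by DESeq2 (-0.53, adjusted p = 0.00012). The classes of *Ryr2* overlapped between blocks, and the median cells of M116 bright were at 1189 and 1191 CPM. Of 18 adult sarcomere genes 13 were lower and 5 higher (27.8%, against 56.1% of all genes) with a median of -0.10. Among the lower ones were the giant spring protein gene *Ttn* with -0.29 (SE 0.08) and *Myom1* with -0.34 (SE 0.11). *Ttn* held 20303 and 20418 CPM in M116 bright, and without the 2 wells it was at -0.30 (SE 0.10) and lower in 3 of 4 blocks. Of 17 calcium handling genes 12 were lower and 5 higher (29.4%) with a median of -0.07. The lower ones included *Atp2a2*, the calcium pump, with -0.31 (SE 0.11) and 3 of 4 blocks lower. Of 19 ion channels 12 were lower and 7 higher (36.8%), with a median of -0.23. The lower ones included *Kcnj11* with -0.72 (SE 0.27), which was 0.04 in thinned cells.

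The other genes named by rule among those higher in all 4 blocks were *Mtmr6*, *Pomt2*, *Ppa2*, *Eif2b1*, *Wdr1*, *Ptgds* and *Krt8*. *Ppa2*, a mitochondrial pyrophosphatase, held 184 and 77.7, 203 and 107, 136 and 79.8, and 104 and 73.9 CPM, a log2 difference of 0.86 (SE 0.22). *Wdr1*, an actin disassembly factor, and *Eif2b1*, a subunit of a translation initiation factor, had high sums above all low sums, which 1.93% of genes did, with log2 differences of 0.88 (SE 0.23) and 1.42 (SE 0.37). *Krt8*, a keratin, had 563 counts in 7 of 46 Nppa-high cells, 45.5% of them in 1 cell, and none in Nppa-low cells. It passed the gene filter through its Nppa-high sums alone, so no fold is given. *Pomt2* had counts in 9 and 3 cells and *Mtmr6* in 26 and 14 cells.
Those lower in all 4 blocks were *Tpst1*, *Slc41a1*, *Poldip3*, *Igfbp7*, *Tdrd3*, *Mpzl1*, *Pxdn* and *Fam129b*. Of these *Tpst1*, *Mpzl1* and *Fam129b* had counts in 6, 12 and 10 Nppa-low cells, with 75.8%, 65.8% and 64.4% of the counts in 1 cell. Without the 2 wells, 6 of these 8 genes were no longer lower in all 4 blocks. In M25 bright the high and low sums were then at 6.19 and 0 CPM for *Tpst1*, 9.85 and 0 for *Mpzl1*, 6.03 and 0 for *Fam129b*, 55.9 and 7.35 for *Igfbp7*, 24.1 and 20.5 for *Tdrd3* and 50.8 and 27.5 for *Pxdn* (CPM without a TMM factor). The log2 differences over the 4 blocks without the wells were -1.28 (SE 1.90) for *Mpzl1*, -1.04 (SE 1.01) for *Igfbp7*, -3.98 (SE 3.02) for *Tpst1*, -4.08 (SE 3.12) for *Fam129b*, -1.34 (SE 0.64) for *Tdrd3* and -0.72 (SE 0.41) for *Pxdn*. *Poldip3*, at -1.77 (SE 0.83), and *Slc41a1* stayed lower in all 4 blocks. *Slc41a1*, a magnesium transporter that was counted in 23 and 28 cells, had -2.20 (SE 0.46) with all cells and -2.21 (SE 0.41) without the wells.

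No transgene feature passed the test, and their differences were of the size of their errors. *hBAG* held 244 and 371 CPM in M25 bright, 7.41 and 7.56 in M25 dim, 194 and 250 in M116 bright, and 108 and 105 in M116 dim, a log2 difference of -0.25 (SE 0.20). *BAG-eGFP* had 0.27 (SE 0.26) and *Bag3* 0.08 (SE 0.20). Of 17 tested protein quality control genes and clients 11 were higher (64.7%, near the 56.1% of all genes) and 6 lower. Of the higher ones 3 had an unadjusted p under 0.05 (1.59% of all genes were higher with such a p). *Hspb7*, a small heat shock protein of the heart, had 0.66 (SE 0.23), higher in all 4 blocks, while the median cells of M116 bright were at 296 and 298 CPM. *Flnc*, the filamin at the Z-disc, had 0.68 (SE 0.31). Without the 2 wells the log2 differences of *Hspb7* and *Flnc* were 0.52 and 0.49.

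The medians of the metabolic lists stood close to 0. The median log2 difference was -0.05 for 84 nuclear oxidative phosphorylation genes, -0.05 for 10 mitochondrially encoded genes, -0.05 for 19 TCA cycle genes, -0.07 for 19 fatty acid oxidation genes and 0.09 for 19 genes of glycolysis and glucose uptake, against 0.11 over all genes. In the same order 23 of 84, 4 of 10, 4 of 19, 4 of 19 and 12 of 19 members were higher. These are 27.4%, 40%, 21.1%, 21.1% and 63.2%, against 56.1% of all genes. Among regulators of mitochondrial biogenesis, *Ppargc1a* was lower in all 4 blocks, with -0.53 (SE 0.19, edgeR, adjusted p = 1). Of 23 tested transcription factors and cofactors of the *Nppa* locus 18 were lower and 0 had an unadjusted p under 0.05, with a median of -0.30 (-0.35 to 0.02 over 9 alternatives). *Nfatc1*, the member with the lowest p, was at -1.51 (SE 0.69) and lower in all 4 blocks, *Mef2c* was at 0.72 (SE 0.40) and *Gata4* at 0.11. Immediate-early genes, which cell isolation can induce, had a median of -0.03 with 10 of 20 higher.
Fibroblast genes had a median of -2.48 (8 of 9 lower), which became 0.95 without the 2 wells, and *Dcn* went from -5.16 (SE 1.56) to -2.21 (SE 2.80). Smooth muscle and pericyte genes had a median of 3.20 with all cells, 3.28 without these wells and 0.24 in thinned cells (0.24 to 4.19 over 8 alternatives). The pericyte genes *Rgs5*, *Pdgfrb* and *Kcnj8* had every high sum above every low sum (1.93% of genes did). For *Kcnj8* this rests on 0.337 CPM in the M25 dim high sum against 0.223 in the M116 dim low sum, both close to no count. Of the other tested members, *Abcc9* was at -0.01, higher in 2 blocks and lower in 2, and *Acta2* was higher in 3 of 4 blocks. *Rgs5* had 1394 counts in 12 Nppa-high cells and 252 in 9 Nppa-low cells, *Pdgfrb* 288 in 5 and 1 in 1, and *Kcnj8* 241 in 5 and 2 in 1. DESeq2 called *Rgs5* and *Pdgfrb* higher (adjusted p = 0.0259 and 0.0124) and edgeR did not (adjusted p = 1 for both). These 3 markers were thus higher with the Nppa-high class in all 4 blocks, and their part in the other differences was not tested beyond the values without wells holding another cell type.
Further lists held 0 genes past the test, and several of their medians changed sign over 9 alternatives. For comparison, 56.1% of all genes tested were higher. Of 12 fetal program genes 5 were higher and 7 lower, with a median of -0.17 (-0.30 to 0.02 over the alternatives). The slow myosin gene *Myh7*, chosen after its values were seen, was at -0.10 on the log2 scale, higher in 2 blocks and lower in 2. The 5 ventricular markers *Hey2*, *Irx4*, *Kcnj2*, *Myl2* and *Myl3* were all below 0, with a median of -0.10 (-0.12 to 0.03), and *Myl2* was at -0.10 (SE 0.05). Of 7 tested trabecular and conduction genes 4 were higher, with a median of 0.51 (-0.91, when ties were ranked in the opposite order, to 0.61). The members with the lowest p, *Gjc1* at -0.88 (SE 0.58) and *Etv1* at -1.17 (SE 1.22), were lower in all 4 blocks. Of 16 genes of the integrated stress response 12 were higher, with a median of 0.86 that was 0.19 without the 2 wells. In this list *Gdf15*, a secreted stress factor, had 256 counts in 6 Nppa-high cells and none in Nppa-low cells, with 43.0% of the counts in 1 cell. It had no count in either M116 dim sum. *Gdf15* too passed the gene filter through its Nppa-high sums alone, and no fold is given. Of 16 cell cycle genes 11 were higher, with a median of 0.75 (-0.25 to 0.81), and *Ccnb1* was counted in 4 and 1 cells. Of 12 endothelial genes 9 were higher, with a median of 1.44 (-1.75, without wells holding another cell type, to 1.88).

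**Figure D4:**
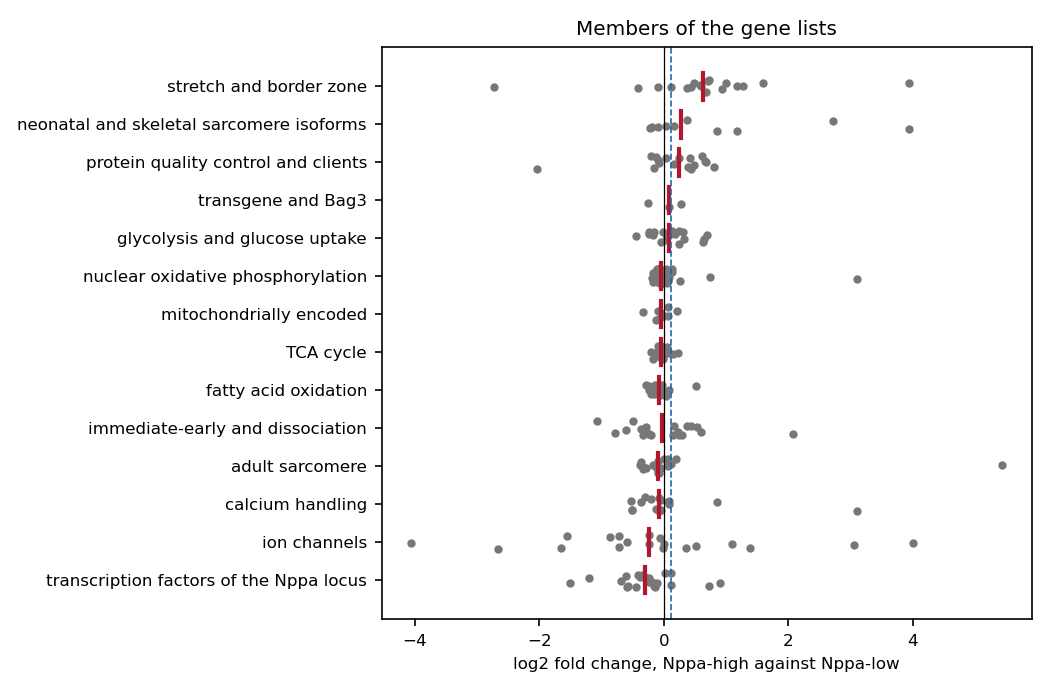
Log2 fold change of each list member, Nppa-high against Nppa-low sums, 1 grey point per gene, with the median of each list as a red bar and the median of all tested genes (0.11) as a dashed line. The stretch list has its median at 0.63 and the medians of the metabolic lists lie within 0.1 of 0, and none of the points passed the test.

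The middle cells were not always between the classes. *Nppb* was at 841 CPM in the middle cells of M25 bright and 578 in those of M116 bright, between low and high, but at 441 in M25 dim, under its low sum of 539 (CPM of the sums, without a TMM factor). *Ankrd1* was lower in the middle than in the Nppa-low sum of all 4 blocks, with 544 and 852, 529 and 893, 727 and 802, and 469 and 726 CPM. Among the cells that the rule did not use, *Nppb* in high and low sums was at 84.3 and 97.3 CPM in M72 bright, 553 and 200 in M72 dim, 699 and 272 in the control M26, and 241 and 213 in the control M73. *Ankrd1* was at 239 and 315, 1901 and 383, 350 and 174, and 416 and 146 CPM in the same order. For both genes the high sum was above the low sum in 3 of 4 sets and below it in M72 bright, where the highest *Nppa* was 15.2 CPM and 2 of the 8 Nppa-high cells had no *Nppa* count. *Myh6* was at 11495 and 15343, 11793 and 13500, 8300 and 9623, and 16389 and 18766 CPM, lower in all 4 sets. *Des* was at 791 and 1132, 1477 and 919, 1413 and 1534, and 1367 and 1574 CPM, higher in M72 dim and lower in the other 3 sets. *Ryr2* was at 2358 and 2944, 1981 and 2796, 1552 and 1876, and 3996 and 2801 CPM, lower in 3 sets and higher in M73. The M73 sums are of 2 cells each. These sets have 1 sum a class and no test. Of the 10 genes with the lowest p among those higher in all 4 homozygous blocks (*Nppb* and *Ankrd1* included), 2 were higher in M72 bright, 6 in M72 dim, 5 in M26 and 5 in M73. Of the 10 lower ones (*Myh6* included), 5, 4, 6 and 5 were lower. Of the 901 genes higher in all 4 homozygous blocks, 53.9%, 53.6%, 49.2% and 29.9% were higher in these sets, against 51.5%, 49.6%, 46.2% and 28.6% of all genes tested. Of the 600 genes lower in all 4 blocks, 51.7%, 48.2%, 45% and 44.3% were lower in these sets, against 39.8%, 42.6%, 38.9% and 34.9% of all genes tested. The same 600 genes were higher in 46.7%, 50.5%, 51.3% and 36.7%, against the shares of all genes given above, so that in M72 dim and M26 more of them were higher than lower.

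**Figure D5:**
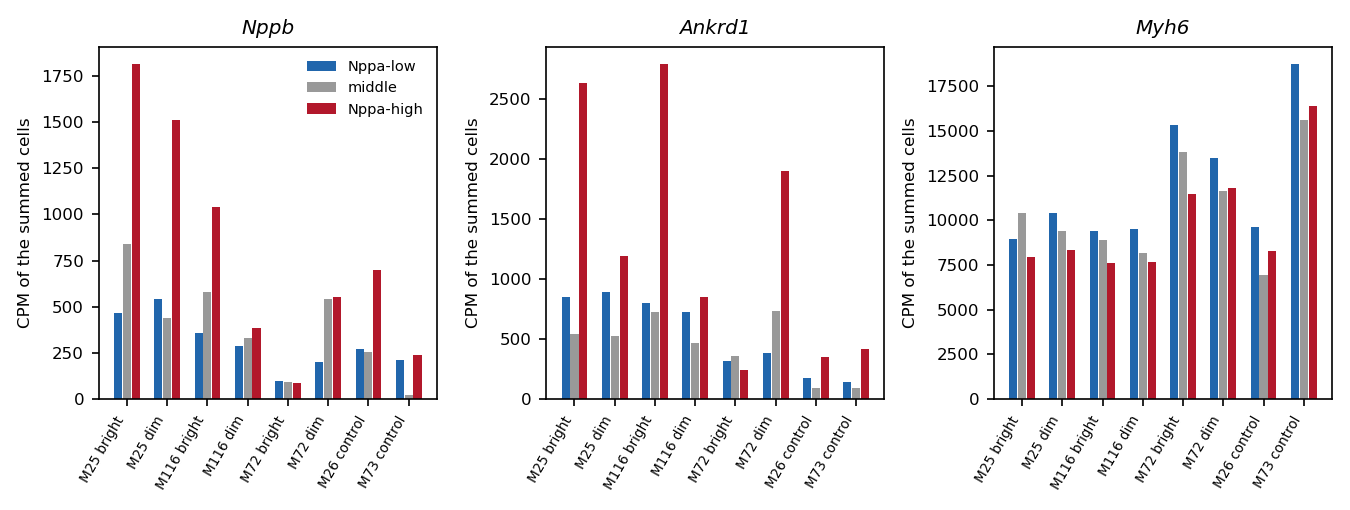
CPM of the summed Nppa-low (blue), middle (grey) and Nppa-high (red) cells in the 4 homozygous blocks, the heterozygous mouse M72 and the control mice M26 and M73, bars from 0. *Ankrd1* is lowest in the middle cells of the 4 homozygous blocks, and *Myh6* is lower in the Nppa-high than in the Nppa-low bar of every set.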

How the data were processed

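Single CMs were sequenced with SMART-seq2. The authors used STAR on a mouse reference that also held human BAG3 and eGFP, and deposited raw counts per gene as whole numbers for 55538 features and 234 cells, without normalization. Genome build, annotation and strand setting are not given in the sources used here. Features under a repeated symbol (141) were not merged, and reads shared by near-identical copies are uncertain.

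From the deposited counts, cells with at least 1000 detected genes (4259 to 1392253 counts, median 788796, in homozygous cells) were ranked by *Nppa* CPM within mouse and eGFP class. The counts of the Nppa-high and Nppa-low cells of the 4 blocks were summed to 8 sums. The test was that of edgeR 4.0.16 in R 4.3.3 (genes kept by filterByExpr, TMM, glmQLFit with the default dispersion of this version, glmQLFTest, Benjamini-Hochberg adjustment over all genes tested except *Nppa*, threshold 0.05), with the block of mouse and eGFP class as a term, since the high and low cells of a block come from 1 animal and 1 eGFP class. The blocks come from 2 mice, so p-values measure spread between blocks more than between animals. Alternatives used DESeq2 1.42.0, limma 3.58.1 on log2 of mean CPM with 1 added, other splits, other filters and each mouse or block left out. The scripts were tested on simulated data. SMART-seq2 reads are not independent molecules.

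The members, the gene lists and the tests were chosen with earlier results of these data known. Named genes were all members of the natriuretic and transgene lists, the 10 genes with the lowest p in each direction among those with 1 direction in all 4 blocks, and up to 4 genes with the lowest p in other lists. *Gata4*, *Abcc9* and the split without 2 wells low in CM markers were chosen after values were seen. Promoters are RefSeq sequences matched by symbol (3 of 3 matched).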

Additional observations from a re-analysis of the deposited data

Results flagged for a closer look

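Of 80 groups of 4 sums (40 genes, Nppa-high and Nppa-low) 15 had a sum far from the other 3, where chance gives about 1 in 20 groups. The 40 genes were chosen from these data and several of their sums are sparse, so that this rate need not hold here. None of the 40 genes had a difference between bright and dim or between mice at an adjusted p of 0.05 (edgeR interaction tests). Over all 12054 genes tested 0 passed in either test, and 323 and 379 of the 12054 had an unadjusted p under 0.05. In the Nppa-low sum of M25 bright, which holds both wells low in CM markers, *Tpst1* stood at 168 normalized CPM, *Poldip3* at 134, *Igfbp7* at 255, *Tdrd3* at 169, *Mpzl1* at 163, *Fam129b* at 103 and *Pomt2* at 1.69, each far above the other 3 Nppa-low sums. In the Nppa-low sum of M25 dim *Npr2* was at 47.2 CPM, *Npr3* at 44.8 and *Slc41a1* at 92.6, and in that of M116 bright *Npr1* was at 1.32. *Ptgds* was lowest in the Nppa-low sum of M116 dim, with 20.5 CPM. Among Nppa-high sums *Acta1* stood at 1434 CPM and *Npr3* at 2.57 in M116 bright, and *Eno1* at 308 in M25 dim. Without the 2 wells low in CM markers and with the cells ranked again, the M25 bright Nppa-low sum held 0 CPM of *Tpst1*, *Mpzl1* and *Fam129b*, 20.5 of *Tdrd3*, 7.35 of *Igfbp7* and 8.57 of *Poldip3* (CPM without a TMM factor), where it held 149, 145, 91.5, 150, 226 and 119 with them, and *Pomt2* was at 11 against 1.5 CPM. What sets the sums of the other blocks apart was not tested.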

How the results depend on the processing

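Of 28 alternatives in edgeR, limma and DESeq2, 21 were planned and 7 were chosen after the data were seen. DESeq2, which gave no adjusted p for 1870 genes, called 46 genes higher and 39 lower, and 54 and 19 without the wells low in CM markers. In edgeR 1 gene was lower with cells split in 4 parts (*Dchs1*), and 1 (*Dcn*, a fibroblast gene named here after its values were seen) with ties ranked in the opposite order and with edgeR's bias-adjusted quasi-dispersion. Leaving out replicates (a mouse or a block) gave 0 genes higher and 0 to 1 lower, the 1 being *Dcn* without the M116 dim block. In the main split 95.2% of the Nppa-low counts of *Dcn* came from 1 cell. The high and low cells of a block share a mouse and an eGFP class, so the main fit pairs them with a block. With no replicate block 0 genes were higher and 0 lower, and *Nppb* was at 1.43. With the mouse as the block both counts were also 0, with *Nppb* at 1.30 for the 8 sums and 1.38 for sums per mouse. Over all alternatives *Nppb* ranged from 0.85 to 1.61, *Ankrd1* from 0.68 to 1.21, *Myh6* from -0.41 to -0.19 and *Ryr2* from -0.66 to -0.33 on the log2 scale.

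Some single genes turned direction. *Corin* was at 0.47, *Furin* at 0.24 and *hBAG* at 0.06 without wells holding another cell type. With cells split at the median rank *Furin* was at 0.05, *hBAG* at 0.12 and *Bag3* at -0.14. In cells thinned to 100000 counts *Furin* was at 0.06, *hBAG* at 0.05 and *Kcnj11*, at -0.72 in all cells and counted in 43 and 41 of 46 cells, at 0.04. With 10 CPM or more against no *Nppa* count *Furin* was at 0.35, *hBAG* at 0.31 and *Npr1* at -1.54. *Bag3* was at -0.00 with no minimum of genes. Leaving out a mouse or a block, *Pam* ranged from -0.05 (without M25) to 0.52 (without M116), with -0.02 without M25 dim, and *Bag3* from -0.04 (without M25 bright) to 0.27 (without M25 dim), with -0.02 without M116. The causes were not tested.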
